A study of Mus musculus with 11 samples.

Results

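The genes described here are 10 components of the circadian clock, Per1, Per2, Per3, Cry1, Cry2, Clock, Nr1d1, Nr1d2, Bhlhe40 and Dbp, as measured by polyA RNA-seq in mouse embryonic palatal mesenchyme cells (MEPMs), cells that build the connective tissue and bone of the palate shelves, taken from E13.5 embryos. Each member was matched by its RefSeq accessions to 1 row of the deposited table, 10 rows of 23286, and the set was chosen with the values below already known, so those values are a description and no test is made on them. Every group shared a culture in 10% serum and a starvation period in 0.1% serum. A 1 h stimulus followed in 3 libraries with FGF1 (50 ng/mL, plus heparin at 1 µg/mL) and in 4 libraries with PDGFA (30 ng/mL), and the other 4 libraries were serum-starved cells that received no ligand. FGF1 and PDGFA activate the FGF and PDGF receptor tyrosine kinases. No group had heparin by itself, so FGF1 and heparin cannot be told apart, and the labels do not give the embryos or cultures behind a library.

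The mammalian clock is a transcriptional feedback loop. The CLOCK and BMAL1 proteins activate genes through E-boxes, among them the Per and Cry genes, whose products return to the nucleus and repress CLOCK and BMAL1. The REV-ERB receptors (Nr1d1, Nr1d2), the E-box repressor BHLHE40 and the D-box activator DBP form further loops. In cultured fibroblasts a serum pulse is known to induce Per genes quickly and to set the phase of the clock. The labels do not give the circadian phase of the cells.

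The table gave 1 FPKM value (fragments per kilobase of transcript, scaled to mapped fragments) for each group, estimated by the authors from its libraries together. The limits that accompany it are given in brackets below, and their confidence level is not given in the sources used here. A gene was called higher or lower where the intervals of the groups lay wholly apart and each value lay inside its own interval. This compares the authors' group estimates. No values per library were used, so no replicate SD or p-value can be given. Sequencing depth is unknown. Of the 23286 rows, 11702 reached 1 FPKM in at least 1 group and were compared, and 9 of the 10 clock genes were among them. The mesenchymal markers Vim, Col1a2, Prrx1, Twist1 and Msx1 had at least 48.7 FPKM in every group, Osr2 and Pdgfra had between 2.46 and 3.87 FPKM, and the estimate of Col1a1 had failed. Epithelial and neural markers stood at or under 1.08 FPKM, as did Ptprc, the 1 blood marker found of 4 listed. Of the endothelial markers Tie1 was at 0, and Kdr and Tek had between 1.37 and 2.6 FPKM.

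Bhlhe40 and Per1 were the clock genes called higher after FGF1, and the Per1 call ended when intervals were widened, as described below. Against starved cells, 2 of the 9 compared clock genes were called higher with FGF1 and 0 lower, where 0.538% of all compared rows were called higher and 0.0171% lower. With PDGFA 0 of the 9 were called, where 0.308% of all rows were called higher and 0 lower. Between the ligands Per1 was called higher with FGF1, as were 0.0256% of all rows, while 0.094% were called lower and none of the 9 clock genes was. Since the genes were chosen from these columns, nothing is read from the shares. The median log2 fold of the 9 genes was 0.10 with FGF1 and 0.07 with PDGFA, beside 0.02 and -0.00287 over all compared rows. Folds on the log2 scale were taken on FPKM + 0.5. In bulk RNA, fewer cells expressing a gene and less RNA per cell cannot be told apart.

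**Figure D1:**
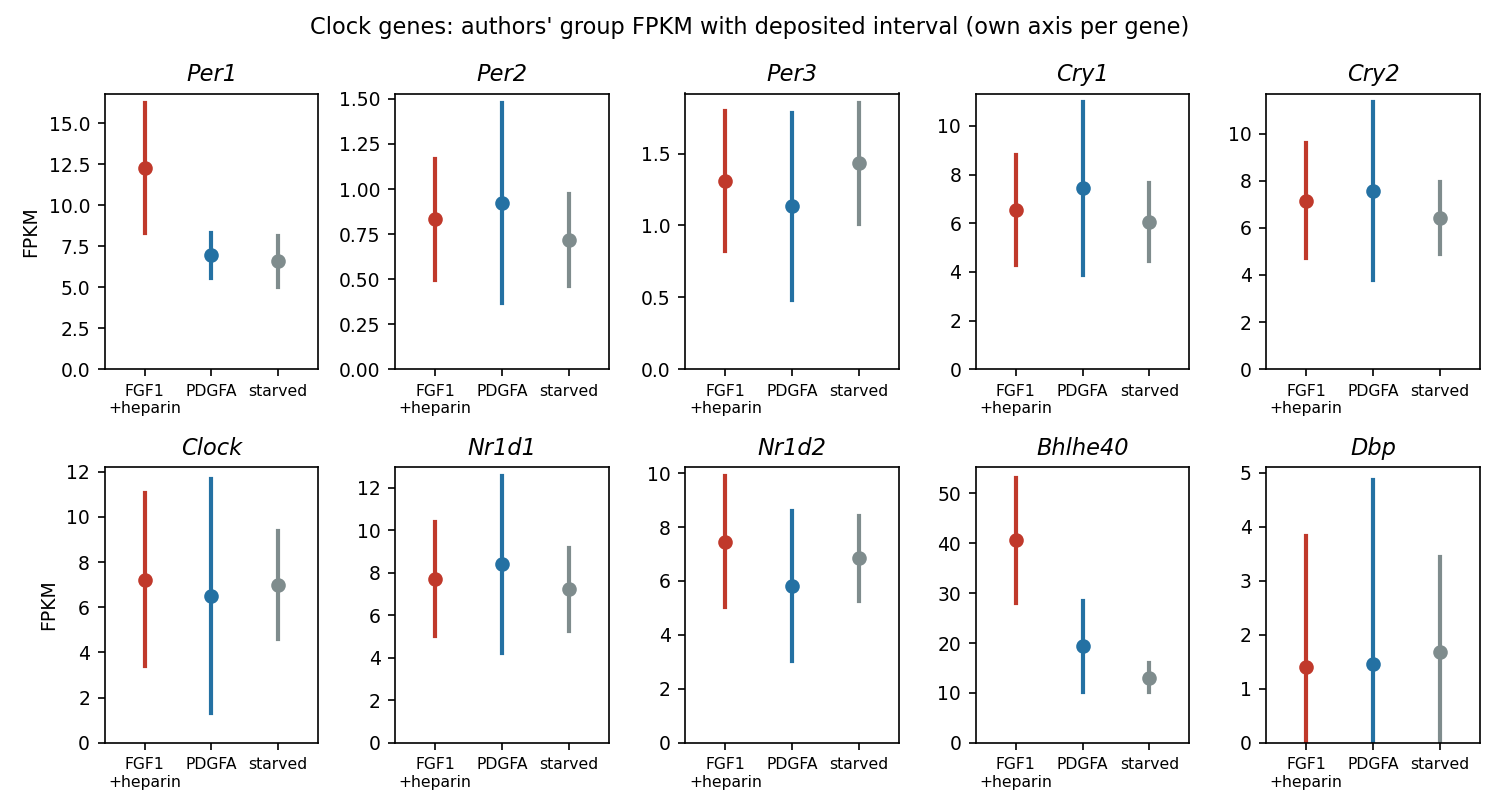
FPKM (linear axis from 0, a separate scale for each gene) of the 10 clock genes in FGF1 with heparin, PDGFA and starved cells. Points are the authors' group values and bars their deposited intervals. Bhlhe40 and Per1 have FGF1 intervals above the starved ones, and the bars of each of the other 8 genes overlap in all pairs of groups.

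Bhlhe40 encodes a basic helix-loop-helix repressor (DEC1) that binds E-boxes and is known as an immediate responder to many stimuli. It had 40.6 FPKM [28.1 to 53.2] with FGF1, 19.3 [10.3 to 28.4] with PDGFA and 13.1 [10.1 to 16] in starved cells. The FGF1 interval lay 12 FPKM above the starved interval, and the FGF1 value was 3.11 times the starved value. The ratio was 1.75 when taken between the facing bounds and 5.25 between the outer bounds. By log2 fold Bhlhe40 stood at rank 31 of 11702 rows with FGF1 (1.60). With PDGFA its log2 fold was 0.55, the highest of the 9 clock genes, and the intervals of PDGFA and starved cells overlapped. Set against PDGFA directly, FGF1 gave a log2 fold of 1.05, and the intervals overlapped by 0.368 FPKM. Each of these values lay outside the other group's interval, a looser criterion that 0.35% of all rows met in this direction. Its relative Bhlhe41 (DEC2) had 1.39 FPKM [0.844 to 1.93] with FGF1, 1.28 [0.527 to 2.04] with PDGFA and 1.43 [0.999 to 1.86] in starved cells. Its intervals overlapped in all pairs of groups, and it was chosen for mention after its values were seen. The Bhlhe40 row spans chr6:108577039-108666925, 89887 bases that also hold a row for 0610040F04Rik, which stood at or under 0.0246 FPKM.

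Per1 encodes the Period protein whose transcription is known to respond quickly to light, serum and cAMP. It had 12.3 FPKM [8.34 to 16.3] with FGF1, 6.95 [5.56 to 8.33] with PDGFA and 6.57 [5.04 to 8.11] in starved cells. With FGF1 the value was 1.87 times the starved value, with ratios of 1.03 between the facing bounds and 3.22 between the outer bounds. With PDGFA the log2 fold was 0.07. Between the ligands the log2 fold was 0.78, and the intervals lay apart by 0.00233 FPKM. The PDGFA interval of Per1 was narrow for its group. Its half-width was 19.97% of the FPKM, while the median over compared rows in that group was 49.6%. Of the 11694 rows with a value above 0 in PDGFA cells 29 were narrower, and of the 2098 rows between 5 and 10 FPKM 3 were. In FGF1 and starved cells the Per1 half-widths, 32.2% and 23.3%, stood beside medians of 34.7% and 25.6%. When every interval, in all 3 groups at once, was given at least its group's median relative width, the Per1 call between the ligands ended, and so did the call of FGF1 against starved cells. The log2 folds stayed at 0.78 and 0.86, since the widening moved no FPKM value. Rescaling the groups by median-of-ratios factors ended the call between the ligands too, at a log2 fold of 0.76. The Bhlhe40 call against starved cells was kept under both settings.

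**Figure D2:**
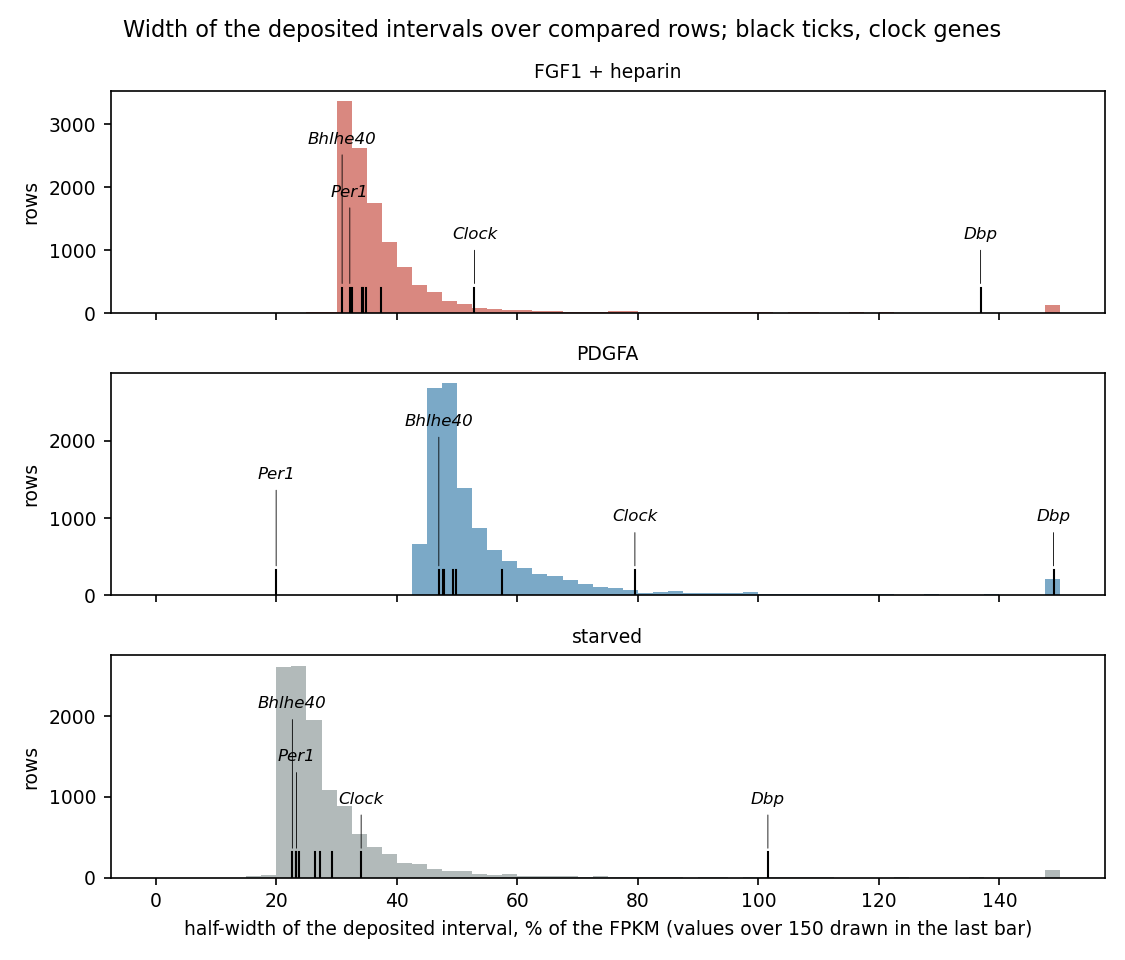
Number of compared rows (vertical axis) by half-width of the deposited interval as a percentage of the FPKM (horizontal axis), in FGF1, PDGFA and starved cells, with black ticks for the 9 compared clock genes and the widest intervals gathered in the last bin. In PDGFA cells Per1, at 19.97%, lies to the left of the bulk of the rows, whose median is 49.6%, while in the other groups it lies within the bulk.

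The PDGFA folds were also set beside the base composition of the transcripts. The Per1 transcripts held 59.4% G and C, above the 90th percentile of compared rows (58.4%, with a median of 50.4%). A smooth trend on GC content, length and level was fitted over the compared rows that had such values. At the values of Per1 it gave 0.22 for PDGFA against starved cells, and with it removed the log2 fold of Per1 was -0.13. Removing the trend left 0.84 for FGF1 against starved cells and 0.97 for FGF1 against PDGFA, and both calls were kept. Bhlhe40 transcripts held 49.4% G and C, and its log2 folds with the trend removed were 1.57 with FGF1, 0.55 with PDGFA and 1.01 between the ligands. Of 8 skeletal muscle markers 6 were compared, and 2 (Acta1 and Actc1) were called higher with PDGFA, beside 0.308% of all compared rows. The intervals of the other 4 overlapped those of starved cells. All 6 had positive log2 folds with PDGFA, at a median of 1.18 and a minimum of 0.80, beside a median of 0.09 with FGF1. The muscle determination genes Myod1 and Myf5 stood at or under 0.258 FPKM in every group. That value was Myod1 with PDGFA, beside 0.0712 in starved cells. The summed level of the list was 30.6 FPKM with FGF1, 110.2 with PDGFA and 23.5 in starved cells. Acta1 by itself made up 24.6, 87.5 and 17.2 FPKM of these sums. Their part in the clock values was not tested.

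The Per1 row pools 2 RefSeq transcripts at chr11:69098956-69109957 (mm10, 1-based), and RefSeq gives windows at 2 starts on chromosome 11, which the row cannot tell apart. Both windows, from 250 bases before to 50 after the start on the plus strand of GRCm38.p6 (RefSeq), are shown because Per1 is the called gene with a window in the RefSeq table. Capitals mark the E-box letters CACGTG. The upstream window spans chr11:69098699-69098998 and the downstream window chr11:69099902-69100201.
Per1 upstream start: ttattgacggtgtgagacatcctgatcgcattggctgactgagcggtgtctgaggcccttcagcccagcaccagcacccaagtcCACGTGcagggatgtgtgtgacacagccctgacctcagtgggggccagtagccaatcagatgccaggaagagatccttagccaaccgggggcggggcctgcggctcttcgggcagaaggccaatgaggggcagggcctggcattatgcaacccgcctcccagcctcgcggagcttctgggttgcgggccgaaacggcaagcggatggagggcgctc
Per1 downstream start: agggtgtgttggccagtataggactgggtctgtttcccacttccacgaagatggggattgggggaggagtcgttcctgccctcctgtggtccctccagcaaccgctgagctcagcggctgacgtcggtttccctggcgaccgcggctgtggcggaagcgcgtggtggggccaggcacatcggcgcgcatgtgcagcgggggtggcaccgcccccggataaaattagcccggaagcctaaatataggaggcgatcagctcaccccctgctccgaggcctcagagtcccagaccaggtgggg
The E-box began 166 bases before the upstream start. The windows were searched on both strands for the E-box CACGTG, the E-prime box CACGTT, the cAMP response element TGACGTCA, the D-box TTATGTAA or TTACGTAA, and the CArG box of the serum response factor by its usual definition. None of the others matched exactly in either Per1 window, which says nothing of sequence outside them. Near matches were not counted, such as tgacgtcg in the downstream window, which differs from the cAMP response element in its last letter. Over 32851 windows of the same length, 7.15% held the E-box, 4.68% the E-prime box, 1.79% the cAMP response element, 1.06% the D-box and 1.63% the CArG box.

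**Figure D3:**
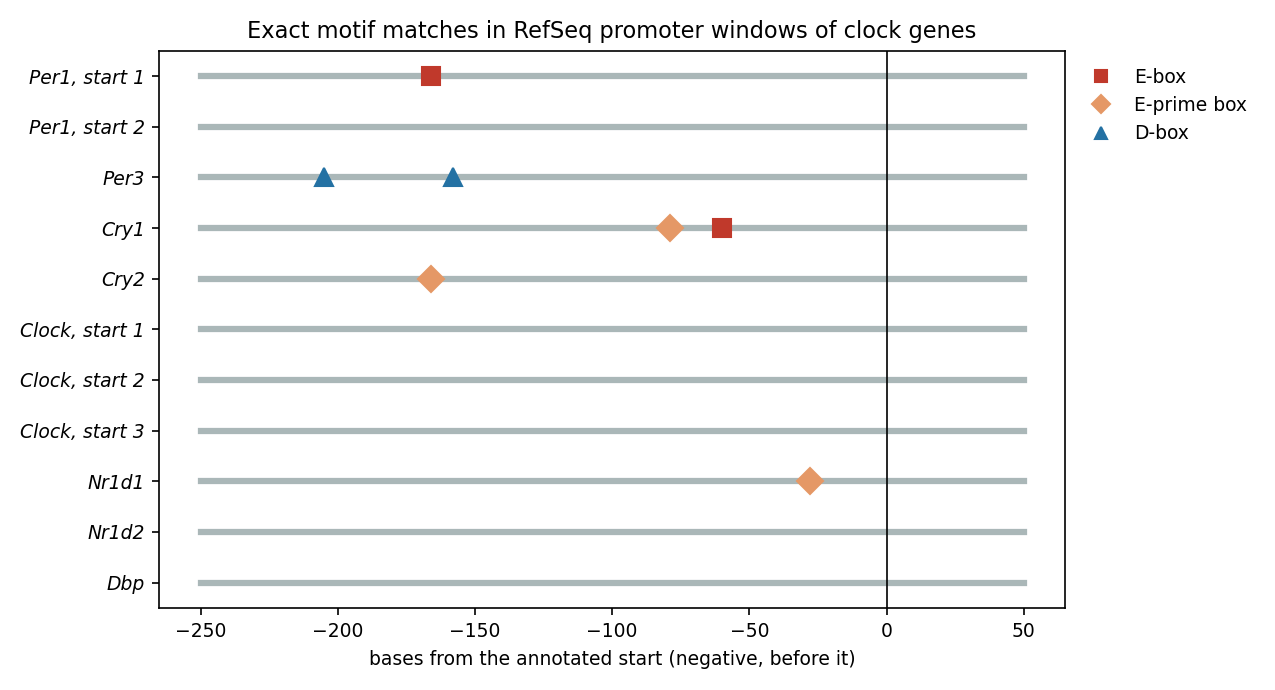
Positions of exact motif matches (horizontal axis, bases from the annotated start) in the 11 RefSeq promoter windows of 8 clock genes. Grey bars span each window from 250 bases before to 50 after the start, and squares, diamonds and triangles mark E-boxes, E-prime boxes and D-boxes. Windows of 5 genes hold a match, and the D-boxes are those of Per3.

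The other Period genes were low. Per2, a core repressor, had 0.835 FPKM [0.496 to 1.17] with FGF1, 0.923 [0.365 to 1.47] with PDGFA and 0.720 [0.463 to 0.972] in starved cells. It stayed under 1 FPKM in every group and was the clock gene not compared. Per3, which is dispensable for core rhythms in mice, had 1.31 FPKM [0.819 to 1.8] with FGF1, 1.14 [0.480 to 1.78] with PDGFA and 1.43 [1.01 to 1.85] in starved cells. Their intervals overlapped in every pair of groups, so a rise like that of Per1 was not seen in either, although the Per2 bounds still allow 1.17 FPKM with FGF1 beside 0.463 in starved cells. The Per3 promoter held 2 copies of the D-box TTATGTAA, at 205 and 158 bases before the start. The stretch around them (capitals, D-boxes) lies at chr4:151044796.0-151044890.0 on the minus strand of GRCm38.p6 and is shown because no other clock gene window held a D-box.
Per3: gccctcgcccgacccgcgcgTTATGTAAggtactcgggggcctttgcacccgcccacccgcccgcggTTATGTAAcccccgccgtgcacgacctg

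The Cryptochromes, which with PER proteins repress CLOCK and BMAL1, differed little between groups. Cry1 had 6.55 FPKM [4.29 to 8.79] with FGF1, 7.44 [3.89 to 11.0] with PDGFA and 6.06 [4.46 to 7.66] in starved cells. Cry2 had 7.14 [4.70 to 9.58], 7.56 [3.79 to 11.3] and 6.42 [4.89 to 7.94] FPKM in FGF1, PDGFA and starved cells. Both stood somewhat above the starved value with either ligand, and all intervals overlapped. The FGF1 ratios of 1.08 for Cry1 and 1.11 for Cry2 lay between limits of 0.560 and 1.97, and of 0.592 and 1.96, set by the bounds. Cry1 held an E-prime box 79 bases and an E-box 60 bases before its start, at chr10:85185089.0-85185153.0, and Cry2 an E-prime box 166 bases before its start, at chr2:92434210.0-92434255.0, both on the minus strand. The stretches (capitals, the boxes) are shown beside those of Per1 because Cry1 holds the same E-box and Cry2 the E-prime box, in genes whose groups overlapped.
Cry1: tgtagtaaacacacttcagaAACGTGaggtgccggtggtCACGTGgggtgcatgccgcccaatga
Cry2: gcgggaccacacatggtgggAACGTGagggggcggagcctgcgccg

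Clock, the activator subunit, had 7.22 FPKM [3.40 to 11.0] with FGF1, 6.51 [1.34 to 11.7] with PDGFA and 6.97 [4.6 to 9.35] in starved cells. The groups overlapped almost wholly, and the log2 folds were 0.05 with FGF1 and -0.09 with PDGFA. Its intervals were wide, with a half-width of 79.5% of the FPKM with PDGFA. The table's locus for Clock, chr5:76183880-76469519, is shared by 5 rows, among them Tmem165 at 51.6 to 56.1 FPKM. Its partner Arntl, which encodes BMAL1, had 11.5 FPKM [7.68 to 15.3] with FGF1, 9.65 [4.78 to 14.5] with PDGFA and 11.6 [8.94 to 14.3] in starved cells. Neither activator gene was called in any comparison.

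The REV-ERB genes encode haem-binding nuclear receptors that repress Arntl. Nr1d1 had 7.71 FPKM [5.02 to 10.4] with FGF1, 8.42 [4.25 to 12.6] with PDGFA and 7.22 [5.25 to 9.18] in starved cells. Nr1d2 had 7.46 [5.03 to 9.88] with FGF1, 5.83 [3.03 to 8.61] with PDGFA and 6.84 [5.24 to 8.42] in starved cells. The pair thus stood in opposite order under PDGFA, Nr1d1 above and Nr1d2 below its starved value, with overlapping intervals. Their transcripts differ in composition, at 56.8% and 41.8% G and C, and with the trend removed the PDGFA log2 folds were 0.07 and -0.04 in place of 0.21 and -0.21. Of the 31-base words of the Nr1d1 transcript 8.88% occurred on the opposite strand of Thra, and 11.1% of those of Nr1d2 occurred in another annotated transcript (AC170187.1). Strand-specific counting is not stated, so reads of Nr1d1 and Thra may be mixed. Nr1d1 held an E-prime box 28 bases before its start (capitals), at chr11:98775380.0-98775425.0 on the minus strand, shown as the match nearest to a start.
Nr1d1: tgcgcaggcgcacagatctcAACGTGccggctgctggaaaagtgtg

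Dbp, a PAR bZIP activator of D-box genes and a direct clock output, could not be placed. It had 1.40 FPKM [0 to 3.82] with FGF1, 1.46 [0 to 4.87] with PDGFA and 1.69 [0 to 3.43] in starved cells. The lower bound was 0 in all groups, so no difference was detectable. Its row shares a locus with Sphk2, which had 11.8 FPKM with FGF1, 13.6 with PDGFA and 11.5 in starved cells, and 28.3% of the 31-base words of Dbp occurred on the opposite strand of Sphk2. The D-box activator Tef had 14.5 FPKM [9.95 to 19.0] with FGF1, 14.3 [7.57 to 21] with PDGFA and 15.3 [12 to 18.6] in starved cells.

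FPKM is scaled to length, so levels can be roughly ordered between genes. The effect on this order of base composition, and of loci shared with other rows as for Clock and Dbp, was not tested. Bhlhe40 was highest in every group. In FGF1 and starved cells its interval lay above that of the next gene (Per1 with FGF1, Nr1d1 in starved cells), and in PDGFA cells it overlapped that of Nr1d1. Per1, Nr1d1, Nr1d2, Clock, Cry1 and Cry2 lay between 5.83 and 12.3 FPKM in all groups, and no neighbours among them were apart. Per1 ranked 2 of 10 with FGF1, 5 with PDGFA and 5 in starved cells. Dbp, Per3 and Per2 had the lowest values in each group, and Per3 and Per2 were apart in starved cells. The wide Dbp interval overlapped that of Per3 in every group, and that of Nr1d2, the next gene above, in PDGFA cells. It also overlapped the wide Clock interval in FGF1 and PDGFA cells.

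**Figure D4:**
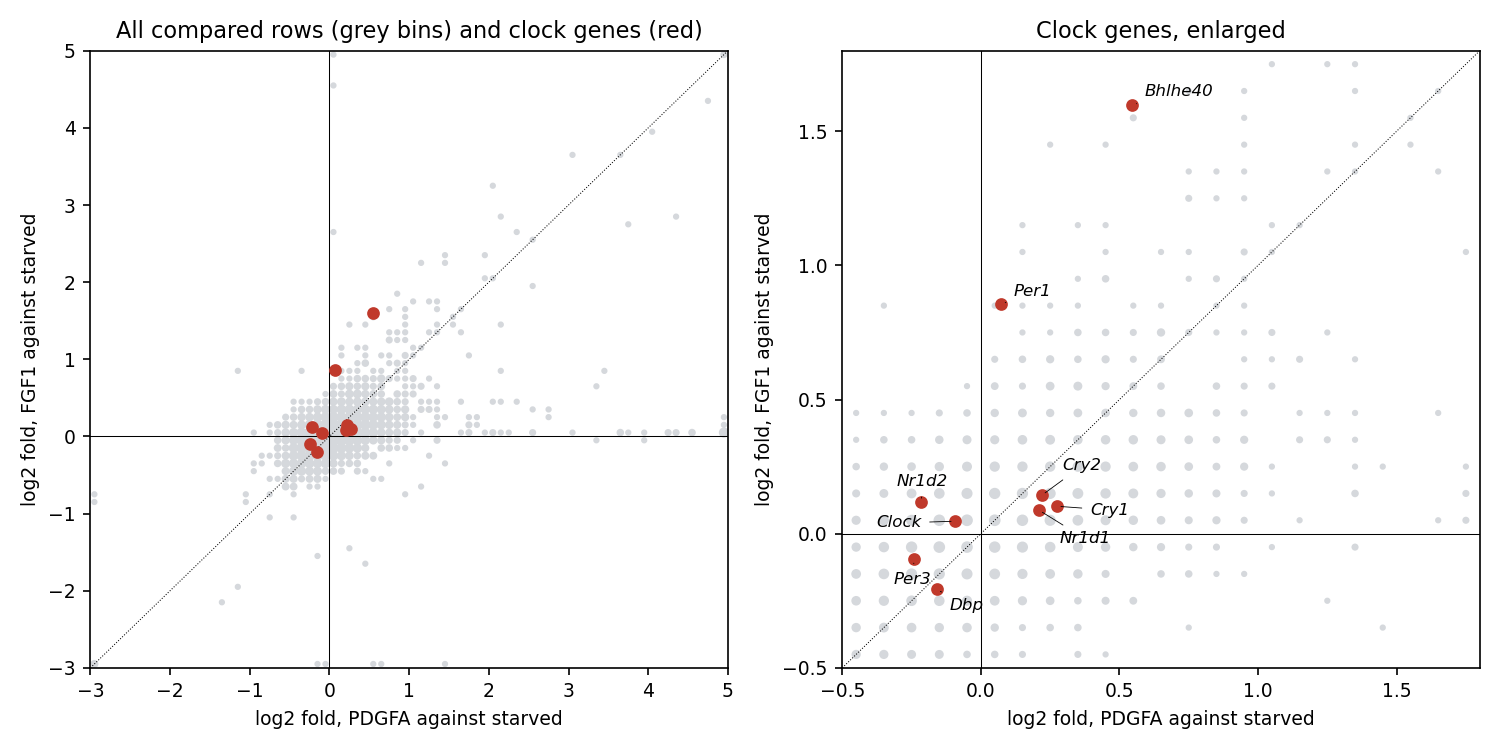
Log2 fold of PDGFA against starved cells (horizontal axis) and of FGF1 against starved cells (vertical axis). Grey dots are bins of the 11702 compared rows, larger with more rows and drawn at the edge of the left panel where a fold lies beyond it, red dots the 9 compared clock genes, enlarged on the right, and the dotted line marks equal folds. Bhlhe40 (0.55 and 1.60) and Per1 (0.07 and 0.86) lie farthest above the dotted line, and the other 7 lie between -0.24 and 0.27 on both axes. Of these 7, Nr1d2, Per3 and Clock also lie above the line. The axes share the starved cells.

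The rows whose folds were most like those of the called members were found by Euclidean distance over the log2 folds of both ligands against starved cells, among 8881 rows with at least 5 FPKM. Nearest to Bhlhe40 were Zfp36l2 (distance 0.07), Nuak2 (0.18), Plk3 (0.25), Lfng (0.34) and Zfp36 (0.34). Nearest to Per1 were Plod3 (0.05), Homer1 (0.18), Map3k14 (0.18), F2rl1 (0.19) and Ifrd1 (0.20). Each of these rows had a higher log2 fold with FGF1 than with PDGFA, which the distance itself selects. Zfp36l2, which encodes an mRNA-decay factor, had 80.1 FPKM with FGF1, 39.8 with PDGFA and 27.4 in starved cells, and Plod3, a lysyl hydroxylase gene, had 148, 89.9 and 82.5 FPKM. The likeness rests on 3 group values per row.

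Around the feedback loop, other clock genes were compared by list. This list and those below were chosen with earlier results of these data known, so nothing is read from their shares of calls. The list of other clock transcription factors held 12 genes, most of which encode such factors (Timeless does not). Of these 12 genes 8 were compared and 0 called, at a median log2 fold of -0.02 for FGF1 and -0.10 for PDGFA. Nfil3, which encodes the D-box repressor E4BP4, had 36.1 FPKM [23.9 to 48.1] with FGF1, 39.8 [20.9 to 58.6] with PDGFA and 20.3 [14.7 to 25.6] in starved cells. Its intervals overlapped those of starved cells, while each value lay outside the other group's interval under both ligands, a criterion met by 1.05% of rows in the higher direction with FGF1 and 0.59% with PDGFA. Ciart, a repressor of CLOCK and BMAL1, had 4.21, 3.15 and 3.62 FPKM in FGF1, PDGFA and starved cells.

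Of 11 genes for the phosphorylation and turnover of PER and CRY proteins, 10 were compared and 0 called, at a median log2 fold of 0.02 for FGF1 and -0.05 for PDGFA. The casein kinase genes Csnk1a1 and Csnk1d had the highest levels of the list. Csnk1a1 had 128, 119 and 126 FPKM in FGF1, PDGFA and starved cells, and Csnk1d had 71.9, 68.9 and 67.8. Csnk1e had 38.8, 40.4 and 30.4 FPKM with overlapping intervals. The kinase gene Gsk3a had 40.3, 41.2 and 36.8 FPKM.

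The CREB pathway links growth factor and cAMP signals to Per1 through protein modification. All 16 of its listed genes were compared and 0 were called, at a median log2 fold of 0.03 for FGF1 and 0.07 for PDGFA. The ERK-activated kinase genes Rps6ka2 and Rps6ka3 had 20.7 and 20.2 FPKM with FGF1, 19.2 and 16.4 with PDGFA and 18.3 and 20.1 in starved cells. The related kinase gene Rps6ka4 had 21.9, 28.0 and 20.2 FPKM, and the coactivator gene Crtc2 had 13.2, 11.8 and 13.2 FPKM, in FGF1, PDGFA and starved cells. These values concern mRNA and not the activity of the proteins.

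Of 12 genes known as rhythmic outputs 11 were compared, 3 were called higher with FGF1 (Klf10, Rgs16 and Noct), beside 0.538% of all compared rows, and 1 with PDGFA (Rgs16), beside 0.308%. They stood at medians of 0.29 and 0.23 on the log2 scale. Klf10, a Krüppel-like repressor gene also known as an early TGF-beta target, had 30.1 FPKM [20.5 to 39.7] with FGF1, 15.3 [7.98 to 22.5] with PDGFA and 8.27 [6.15 to 10.4] in starved cells. Like Bhlhe40 it stood higher with FGF1 than with PDGFA without intervals that lay apart. Noct, which encodes the phosphatase Nocturnin, had 15.1 FPKM [10.3 to 19.8] with FGF1, 16 [8.29 to 23.7] with PDGFA and 7.25 [5.4 to 9.08] in starved cells. Its PDGFA value was 2.21 times the starved value and was not called, while its FGF1 value was 2.08 times the starved value and was. Rgs16, a regulator of G protein signalling, had 7.48 FPKM [4.75 to 10.2] with FGF1, 12.5 [5.33 to 19.7] with PDGFA and 2.36 [1.53 to 3.18] in starved cells. The other members named by level, Cdkn1a, Tspan4, Tsc22d3 and Por, had log2 folds between 0.08 and 0.33 with FGF1 and between -0.15 and 0.31 with PDGFA, and were not called.

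Per1 is also a glucocorticoid target, and genes of that kind were listed. Of 9, 8 were compared, 4 were called higher with FGF1 (Per1, Sgk1, Dusp1 and Errfi1), beside 0.538% of all compared rows, and 2 with PDGFA (Dusp1 and Errfi1), beside 0.308%. The list stood at medians of 0.72 and 0.17 on the log2 scale. Fkbp5 and Tsc22d3, which are known mainly as glucocorticoid targets, had log2 folds of -0.02 and 0.08 with FGF1. A part of glucocorticoid signalling in the Per1 values was not tested. Sgk1, a serum- and glucocorticoid-induced kinase gene, had 34.5 FPKM [23.6 to 45.4] with FGF1, 23.3 [12.3 to 34.4] with PDGFA and 14.0 [10.7 to 17.3] in starved cells. The metallothionein genes Mt1 and Mt2 had log2 folds of 0.58 and 0.42 with FGF1, and their starved values lay outside their own intervals.

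For scale, 6 early growth factor response genes had a median log2 fold of 2.15 under FGF1, where 5 were called higher, and of 1.70 under PDGFA, where 3 were. Over all compared rows these shares were 0.538% and 0.308%. Egr1 had 116 FPKM with FGF1, 49.7 with PDGFA and 11.4 in starved cells, and Nr4a1 had 164, 166 and 12.7. With PDGFA, early genes such as Nr4a1 and Junb (log2 fold 2.53) were thus called higher while the log2 fold of Per1 was 0.07.

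**Figure D5:**
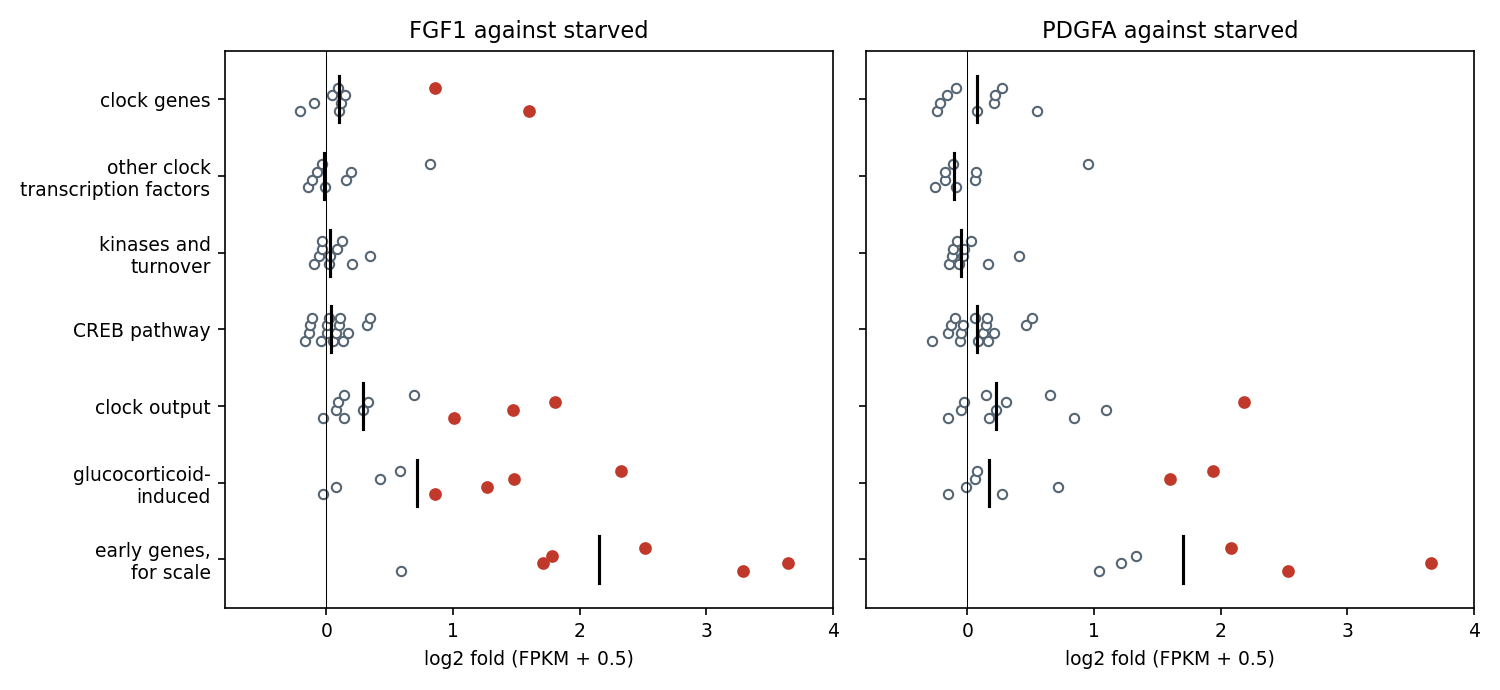
Log2 folds (horizontal axis, FPKM + 0.5) of the compared genes of each list for FGF1 against starved cells (left) and PDGFA against starved cells (right). Each circle is a gene, filled red where it was called, and black bars are list medians. Among the clock genes Per1 and Bhlhe40 are filled on the left and none on the right, and the early genes are spread up to 3.64 and 3.66.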

How the data were processed

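Per the labels, libraries were polyA-selected RNA of 3 groups (11 libraries). The submitters' processing notes name CASAVA, TopHat and Cuffdiff with build mm10; the sources used here do not give their roles, versions or settings, nor the strand of the libraries. Per the file headers, the deposited values are FPKM, made by the authors for each group, with lower and upper bounds. FPKM is scaled to the library total, so a change in other genes can shift a value.

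The members and gene lists were chosen with earlier results of these data known. RefSeq accessions (GRCm38.p6, the build of mm10) named 22992 rows, GENCODE M21 named 126 more, and 168 stayed unnamed. Rows needed 1 FPKM in a group, and 2 rows with failed estimates were left out. Calls across all 11702 rows required intervals wholly apart, and log2 folds used FPKM + 0.5. No test between replicates was run, since the values are per group. Every member is named, with called genes and up to 4 further genes by level from each other list. The trend was a cubic robust regression on GC content, log2 length and log2 level. Of compared rows 98.9% had GC and length values, and the 11464 rows with transcripts of at least 200 nt were fitted. Alternatives covered the pseudocount, minimum, scaling, call rule, trend and, added after the Per1 interval was seen, interval width. The code of the call rule and the trend was tested on simulated data. Noise for the call rule was an assumed fraction of each interval's width, while the confidence level of the real bounds is unknown. The simulation therefore gives no rate of false calls for these data. Promoter windows came from RefSeq for 8 members, and those of Per2 and Bhlhe40 were not used here. Scripts ran under Python 3.11.15 (pandas 2.3.3, numpy 2.4.6, statsmodels 0.14.6; plots by matplotlib 3.10.9).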

Additional observations from a re-analysis of the deposited data

How the results depend on the processing

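No paired analysis was possible because the table holds group values and no values per library; leaving out a replicate and the replicate block were not run for the same reason. The call uses no pseudocount and the minimum FPKM sets only which rows are compared, so those settings could not change a call. A rule that also asked for a minimum fold could only remove one. Of 264 recomputed member folds, which include these settings, 260 kept their call or lack of one. The exceptions were Per1 between the ligands under median-of-ratios scaling (log2 fold 0.76) and, with widened intervals (chosen after seeing the data), Per1 between the ligands and against starved cells with FGF1, which lost their calls, and Bhlhe40 between the ligands, which was called under the looser rule (1.05). Members called between the ligands thus numbered 0 under median-of-ratios scaling, 0 with widened intervals and 2 under the looser rule, in place of 1, and with FGF1 against starved cells 1 in place of 2 with widened intervals. Over all rows the looser rule gave 206 calls for FGF1 against starved cells, 113 for PDGFA against starved cells and 60 between the ligands, in place of 65, 36 and 14. With it 59.7%, 61.1% and 68.3% of these calls were higher, in place of 96.9%, 100% and 21.4%. A minimum of 5 FPKM gave 8 calls between the ligands because fewer rows were compared, 37.5% of them higher. Median-of-ratios scaling and widened intervals each left 8.33% higher there. Under each scaling the median log2 fold of all rows lay within 0.07 of 0, the farthest being -0.07 (PDGFA against starved cells, quantile normalization). Depth is unknown, so the intervals set what could be told apart.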
